A study of Mus musculus with 2 samples.

Results

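Fev-positive endocrine precursors are cells of the embryonic pancreas that carry transcripts of the transcription factor gene Fev, have few transcripts of the progenitor gene Neurog3 and lie under set limits of glucagon, insulin and somatostatin. They were taken by a rule on single cells from 2 libraries of mouse pancreas at E15.5 (the day of embryonic development). A cell was a member with at least 3 UMIs (unique molecular identifiers, each counting 1 captured transcript) of Fev and fewer than 3 of Neurog3. Per 10000 UMIs of the cell it also had to have under 100 of the acinar enzyme Ctrb1, under 200 of glucagon (Gcg), under 200 of the insulins Ins1 and Ins2 together, under 50 of somatostatin (Sst) and under 20 of the collagens Col1a1 and Col3a1 together. The rule found 153 cells of 10008, of which 136 lay among 6384 WT cells and 17 among 3624 Mettl3pKO cells. WT embryos are the controls. Mettl3pKO embryos lack Mettl3, which catalyses m6A methylation of RNA, in pancreatic progenitor cells that express Pdx1. The strain, the sex and the number of embryos in each library are not given in the sources used here, nor is the line that deletes the gene. Each genotype is 1 library, so no difference between genotypes or between classes of cells has a replicate check, and no test was made. Levels are CPM, UMIs per 1000000 UMIs of the summed cells of a class, and are compared within a gene. All intervals are exact 95% intervals (Poisson for levels, binomial for ratios and Clopper-Pearson for shares) that cover counting error only. Where a count is 0, the text gives instead the level or share that 3 counts would make, which is lower than the upper end of the exact interval.

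Islet cells arise from duct-like epithelial cells of the embryonic pancreas. A pulse of the transcription factor Neurog3 commits such a cell to the endocrine fate, and the cell then leaves the epithelium and stops dividing. Fev, an ETS-family factor better known from serotonin neurons, marks the step between the Neurog3 pulse and the first islet hormones. Pax4, another factor of that step, favours the beta and delta fates. Neurod1 is a direct target of Neurog3, Runx1t1 is a corepressor gene of the endocrine lineage, and Chgb codes for chromogranin B, a granin of secretory granules.

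The 2 libraries differed in depth. WT cells had a median of 10824 UMIs and a lowest total of 3803, and Mettl3pKO cells a median of 16481 and a lowest total of 10719. The deposited tables run from deep to shallow cells and end inside a row, so that shallower cells were not analysed here. Precursors were shallow cells in WT (median 8729.5 UMIs, range 6757 to 20175, with a median of 3573 genes), and 32 of the 136 reached the lowest total of the Mettl3pKO library. The 17 Mettl3pKO precursors had a median of 14194 UMIs. The libraries shared 33 cell index numbers. Mettl3 stood at 14.0 CPM (13.2 to 14.8) over all WT cells and at 9.43 (8.70 to 10.2) over all Mettl3pKO cells. In precursors it had 18 UMIs in WT (13.8 CPM, 8.15 to 21.7) and 3 in Mettl3pKO (11.3 CPM, 2.32 to 32.9), too few to check the deletion in these cells.

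Fev was not confined to the cells that the rule took. In WT, 442 cells had at least 3 Fev UMIs. Of these, 62 also had 3 or more Neurog3 UMIs, and 244 of the other 380 failed a limit on another cell type: 150 the glucagon limit, 61 the insulin limit, 16 the somatostatin limit, 15 the collagen limit and 10 the Ctrb1 limit, with 8 cells failing more than 1. In Mettl3pKO, 138 cells had at least 3 Fev UMIs, 5 of them with 3 or more Neurog3 UMIs, and 83 of the other 133 failed the glucagon limit. For comparison, cells were put in 7 other classes with the same limits. Neurog3-high cells had at least 3 Neurog3 UMIs and passed all limits, Gcg-high, insulin-high, Sst-high, Ctrb1-high and collagen-high cells failed only the limit of that name, and Spp1-positive duct cells had at least 10 UMIs of Spp1 per 10000, none of Neurog3 or Fev, and passed all limits. At least 3 Fev UMIs were found in 52.0% of the 277 WT Gcg-high cells, 22.8% of the 92 Sst-high cells, 16.6% of the 367 insulin-high cells and 15.0% of the 313 Neurog3-high cells, against 0.634% of the 1893 Ctrb1-high cells and 0.854% of the 1523 collagen-high cells. Members held 30.7% of the 3858 WT Fev UMIs and Gcg-high cells 23.8%. In Mettl3pKO, Gcg-high cells held 43.7% of 1213 and members 12.5%.

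Because the rule used Fev, the Fev level of members is a description. Members in WT had 3 Fev UMIs at the lowest, 6 at the median and 51 at the highest, and 904 CPM in sum (853 to 957). The 24 WT cells with 2 Fev UMIs that passed every other limit had 2347 CPM of Chgb (2158 to 2549), 41.5 of Pax4 and 399 of Spp1, the duct gene osteopontin. The 29 members with exactly 3 Fev UMIs had 3028 of Chgb (2829 to 3237), 45.8 of Pax4 and 10.6 of Spp1, and the 107 with 4 or more had 5812 of Chgb (5665 to 5961), 114 of Pax4 (94.4 to 137) and 86.8 of Spp1. Spp1 has no order across these sets, and the 5 highest cells held 78.3% of the 92 Spp1 UMIs of members. Of the 136 WT members, 103 had no Neurog3 UMI, 22 had 1 and 11 had 2.

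The other 4 markers were found among WT members, but not in them alone. These markers were chosen with earlier results of these data known, but their counts did not enter the rule. All 4 of Pax4, Neurod1, Runx1t1 and Chgb had a UMI in 44 of the 136 WT members, 3 of them in 70, 2 in 21 and 1 in 1 cell. Neurod1 had a UMI in 132 cells, with 0 UMIs at the lowest, 8 at the median and 43 at the highest. Chgb had a UMI in 130 cells, with 0, 31 and 267 UMIs. Runx1t1 had a UMI in 111 cells (0, 4 and 58 UMIs) and Pax4 in 56 (0, 0 and 13 UMIs), so Pax4 was the marker that most members did not show. With every cell thinned to 5000 UMIs, Pax4 was found in 30.1% of WT precursors (22.6 to 38.6; 41.2% unthinned, median 8729.5 UMIs) and in 0.191% of Spp1-positive duct cells, which should lack it (0.478% unthinned, median 10344 UMIs). At that depth, 42.8% of Neurog3-high cells had Pax4. Neurod1 was found in 94.9% of precursors and 94.8% of insulin-high cells, and Chgb in 94.1% and 98.9%. Runx1t1 was found in 71.3% of precursors, 81.5% of Sst-high cells and 19.3% of insulin-high cells. Pax4 was rare in Gcg-high cells (0.361%). By these shares, none of the 4 set precursors apart from every neighbouring class. In the mm10 build, Fev lies at chr1:74881509-74885419 on the minus strand, Pax4 at chr6:28442334-28449353 on the minus strand, Neurod1 at chr2:79452521-79456751 on the minus strand, Runx1t1 at chr4:13743436-13893649 on the plus strand and Chgb at chr2:132781278-132795079 on the plus strand (GENCODE gene spans).

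**Figure D1:**
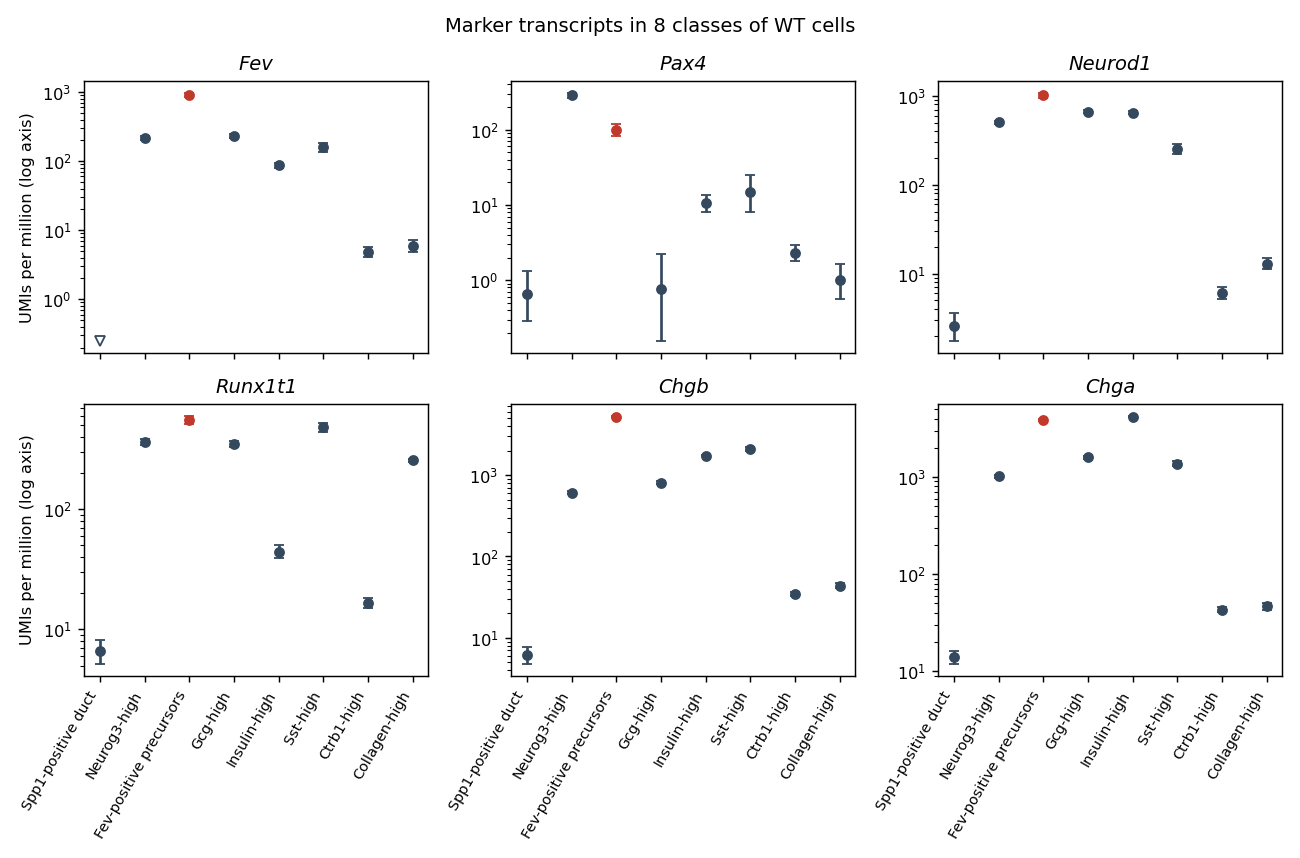
Level of the 5 marker genes and of Chga in 8 classes of WT cells, in CPM on a log axis, with exact 95% Poisson intervals (smaller than the point where not seen) and an open triangle at the level that a count of 0 allows; precursors are in red. Chgb stands at 5208 in precursors against 2095 in the next class, while Pax4 is highest in Neurog3-high cells (285 against 99.3).

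Among 4062 genes with at least 50 CPM and 20 UMIs in WT precursors, leaving out the genes of the rule and islet hormones, 1245 were highest in precursors of the 8 classes. The filter used the level in precursors, which favours this count, so it is a description. In 312 of the 1245 the interval of the ratio to the next class lay above 1, 51 stood at least 1.5-fold above the next class and 5 at least 2-fold. Chgb was one of the 5, at 5208 CPM (5085 to 5333) against 2095 in Sst-high cells, a ratio of 2.49 (2.36 to 2.61). The others were Pcyt1b, which codes for an enzyme of phosphatidylcholine synthesis (281 against 114 in Sst-high cells, ratio 2.48, 1.99 to 3.10), Slc35d3 (60.4 against 23.1 in Neurog3-high cells, ratio 2.61, 1.89 to 3.61), N4bp2l1 (56.6 against 20.6 in insulin-high cells, ratio 2.74, 2.02 to 3.71) and Kctd12b (131 against 57.1 in Gcg-high cells, ratio 2.29, 1.86 to 2.80). The vitamin D receptor gene Vdr followed at 1.92 times the insulin-high level (1.65 to 2.24), the beta-lineage homeobox gene Mnx1 at 1.96 times (1.60 to 2.38), Pax6, a factor that all islet cells need, at 1.65 times the Gcg-high level (1.53 to 1.77), and the tight-junction gene Cldn4 at 1.78 times the Neurog3-high level (1.52 to 2.09). Some of these transcripts were found in most members: Pax6 had a UMI in all 136, Chgb in 130, Cldn4 in 108, Vdr in 107 and Pcyt1b in 91. Others were found in fewer: Kctd12b in 65, Mnx1 in 54, Slc35d3 in 53 and N4bp2l1 in 45. The 5 highest cells held 31.8% of the Mnx1 UMIs and 31.1% of the N4bp2l1 UMIs. The neighbour in level was most often the Neurog3-high class (349 of 1245 genes), the Gcg-high class (344) or the Sst-high class (280).

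Precursors were set against the 313 Neurog3-high cells, the stage before them. A gene was called higher or lower at a ratio of at least 2 among 7607 genes with a mean of at least 20 CPM over the 2 classes, which took 593 genes as higher (7.8%) and 683 as lower (8.98%). The median log2 ratio of all 7607 genes was 0.04. Neurog3-high cells had a median of 9240 UMIs and precursors one of 8729.5. Both classes were cut from the same cells by Neurog3 and Fev, so the ratios describe them and nothing is read from the counts.

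The transcription factor genes of the endocrine lineage split by stage. Of 34 listed, 32 were measured, 14 higher and 5 lower, beside 7.8% and 8.98% of all genes. The median log2 ratio was 0.61. The 5 lower ones were Nhlh1 (3.06 against 93.6 CPM), Neurod2 (13.0 against 247), Sox11 (7.64 against 43.0), Sox4 (434 against 1760) and Pax4 (99.3 against 285). The higher ones included Mnx1 at 113 against 7.31 CPM, the alpha-cell gene Irx1 at 86.4 against 9.36, Pax6 at 873 against 134 and Irx2 at 122 against 19.3. Neurod1 stood at 2.00 times the Neurog3-high level (1010 against 504), the pan-endocrine factor Isl1 at 2.64 times (1330 against 505) and Pdx1, an early pancreatic and later beta-cell factor, at 4.31 times (238 against 55.3). Nkx2-2 (384 against 610), Insm1 (922 against 1136), Runx1t1 (556 against 362) and Nkx6-1 (869 against 505) lay within 2-fold.

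Genes listed for the progenitor stage were low in precursors. Of 22 listed, 20 were measured, 17 of them lower and none at least 2-fold higher, beside 8.98% and 7.8% of all genes. The median log2 ratio was -2.32. The list was chosen with earlier results of these data known and Neurog3 cut both classes, so this is a description. Spp1 stood at 1471 CPM in Neurog3-high cells and at 70.3 in precursors, 20.9 times lower (17.0 to 26.0). Amotl2, a regulator of the Hippo pathway, stood 17.6 times lower (12.9 to 24.6), the Notch effector gene Hes1 at 53.5 against 630, the duct factor gene Sox9 at 136 against 483, and the cell cycle inhibitor gene Cdkn1a at 154 against 786. Atoh8 had 0 UMIs in precursors against 42.4 CPM. Btg2 (1099 against 891) and Vwa5b2 (668 against 486) did not share the pattern. Of 22 listed genes of the Notch pathway, 12 were measured and 9 were lower, beside 8.98% of all genes, with a median log2 ratio of -1.34. The 9 included the ligand gene Dll1 (10.7 against 71.1), the receptor gene Notch2 (6.11 against 49.7) and the glycosyltransferase gene Lfng (5.35 against 53.8). Dlk1, a non-canonical ligand gene, was the 1 member that was higher (597 against 143).

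Outside the lists, the 3 genes furthest below the Neurog3-high level had no UMI in precursors. Grin3a, an NMDA receptor subunit gene, stood at 179 CPM there, at least 78.0-fold higher than the 2.29 CPM that a count of 0 allows (3 UMIs over the class). Rasgrp3, a Ras exchange factor gene, was at least 75.3-fold higher and Tmem171 at least 73.2-fold by the same floor. The exact intervals of these ratios start lower, at 63.2 for Grin3a, 61.0 for Rasgrp3 and 59.4 for Tmem171. Sod3, extracellular superoxide dismutase, had 2 UMIs in precursors against 197 CPM, a ratio of 129 (35.5 to 1064). Ces1d (3 UMIs, ratio 48.6, 16.5 to 237), Tns1 (33.5, 14.2 to 104), Slc28a3 (ratio 29.6), Adamts16 (29.1, 13.3 to 79.7), Col18a1 (23.2, 14.2 to 40.7) and Tinagl1 (17.7, 12.7 to 25.5) completed the 12 furthest below. Several of these code for matrix or adhesion proteins, such as collagen XVIII and tensin. The 12 furthest above were led by Sphkap, an anchoring protein gene for protein kinase A (467 UMIs and 357 CPM in precursors against 41 UMIs, 29.8-fold, 21.6 to 42.0), Slc30a8, the zinc transporter of insulin granules (242 against 7.90, 30.7-fold, 20.7 to 47.3), the imprinted gene Peg10 (1972 against 116, 17.0-fold, 15.3 to 18.9) and the prohormone convertase gene Pcsk2 (1333 against 78.7, 16.9-fold, 14.9 to 19.3). The rest were Samd5 (21.2-fold), the fatty acid receptor gene Ffar1 (20.7-fold), Ripply3 (19.5-fold), Dbpht2 (14.8-fold), Tmem27 (14.7-fold) and 3 amino acid transporter genes, Slc16a10 (15.0-fold), Slc7a2 (14.7-fold) and Slc38a5 (14.2-fold). These 12 are not precursor traits alone: all but Samd5 and Dbpht2 stood higher still in Gcg-high, insulin-high or Sst-high cells. Gcg-high cells had 476 CPM of Sphkap, 3767 of Peg10 and 2215 of Pcsk2, and insulin-high cells 798 of Slc30a8. Slc30a8 had a UMI in 68 precursors.

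Genes of the secretory machinery stood far above the Neurog3-high level. Of 15 listed genes of granins and prohormone processing, 14 were measured and 12 were higher, beside 7.8% of all genes. The median log2 ratio was 3.01. Chgb stood at 5208 against 608 CPM, the chromogranin A gene Chga at 3866 against 1018, Scg2 at 669 against 54.4, the carboxypeptidase gene Cpe at 1740 against 228 and Resp18 at 80.2 against 4.68, while Nucb2 (51.2 against 72.3) and Secisbp2l (50.4 against 51.8) lay within 2-fold. Of 28 genes of exocytosis and excitability, 26 were measured, with 19 higher and none lower, beside 7.8% and 8.98% of all genes. The median log2 ratio was 1.54. The higher ones included the granule membrane gene Ptprn (57.3 against 3.80), Rab3b (97.8 against 9.65), Snap25 (104 against 22.8) and both subunits of the beta-cell potassium channel, Abcc8 (489 against 64.1) and Kcnj11 (297 against 80.7). Of 13 listed minor hormone and peptide genes, 5 were measured. Ppy (238 against 3.51), Iapp (4027 against 190) and Pyy (9373 against 532) were higher, Cck was lower (59.6 against 189), and Ghrl lay within 2-fold (1272 against 768).

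The granin genes that were higher together are known for cyclic AMP response elements close to their start sites, so these sites in 3 of them are shown, chosen after their levels were seen. Each run is 30 bases around the match, taken from the 250 bases upstream of the RefSeq start in GRCm38.p6, 5′ to 3′ on the gene's strand, with TGACGT or ACGTCA, the 2 orientations of the core of that element, in capitals. Where the 2 overlap they form the full element TGACGTCA. The Chgb run lies at chr2:132781559-132781588 on the plus strand, that of Chga at chr12:102554886-102554915 on the plus strand and that of Scg2 at chr1:79440076-79440105 on the minus strand. GENCODE starts Chgb and a transcript of Scg2 further upstream than RefSeq does, so those 2 runs lie inside an annotated exon there.
Chgb: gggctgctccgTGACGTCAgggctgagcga
Chga: gggcggtcctaTGACGTaatttcctgggtg
Scg2: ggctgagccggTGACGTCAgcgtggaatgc
The match starts 72 bases before the RefSeq start of Chgb, 44 before that of Chga and 68 before that of Scg2. Of the 15 granin and processing genes, 13 matched the promoter table and 5 held the core motif (Chgb, Chga, Scg2, Pcsk1 and Scg5), 38.5% against 6.47% of all 32851 promoters of the same length. The full element was in 3 of the 13, Chgb, Scg2 and Pcsk1, and in 1.55% of all promoters. Chgb and Chga were higher in precursors than in Neurog3-high cells by 8.57 and 3.80 times, Scg2 by 12.3 times, Pcsk1 by 5.42 times and Scg5 by 8.63 times, and genes without the letters in this window, such as Pcsk2 and Scg3, were higher too. A match describes the sequence and is no evidence that a factor binds there.

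**Figure D2:**
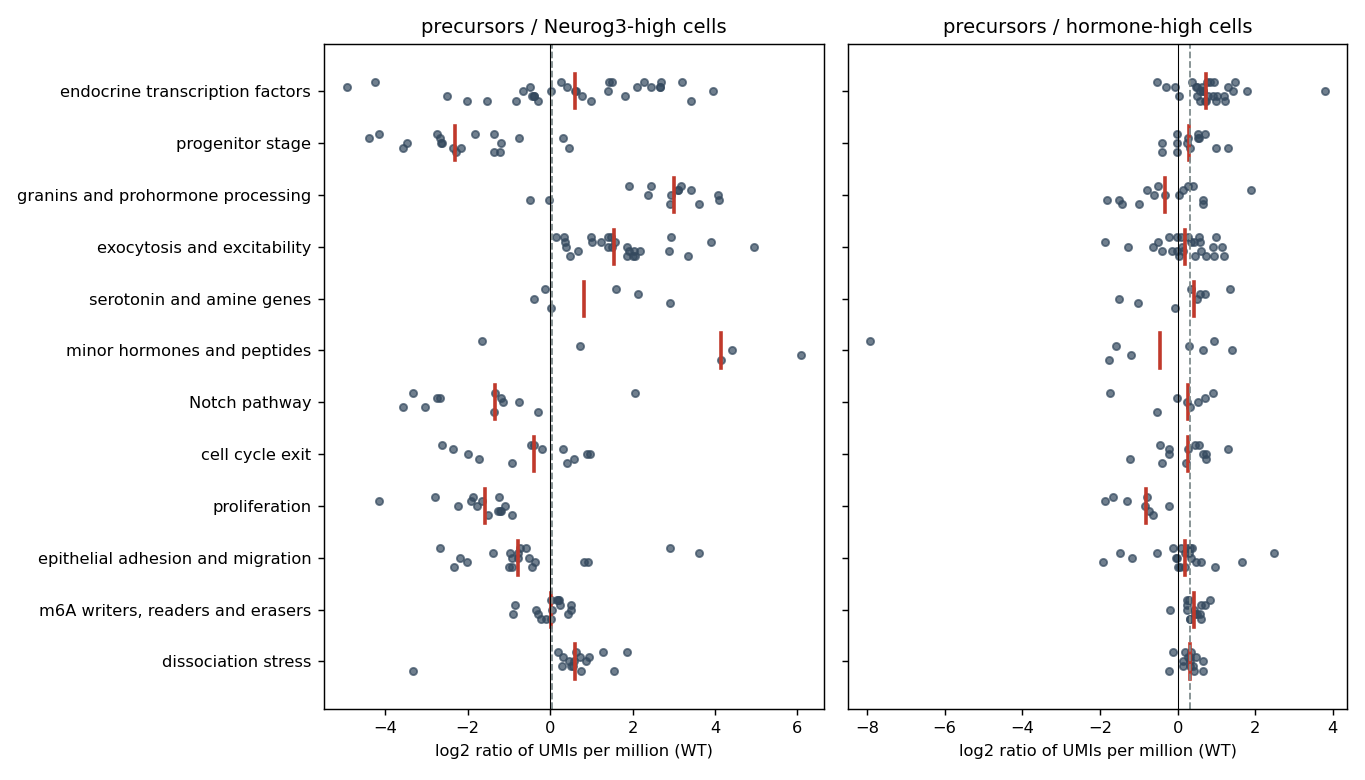
Log2 ratio of CPM in WT precursors over Neurog3-high cells (left) and over hormone-high cells (right) for each measured member of 12 gene lists; each point is 1 gene, red bars are list medians, the dashed line is the median of all genes measured (0.04 and 0.31), and genes with 0 UMIs in a class are not drawn. Granin and exocytosis genes lie to the right in the left panel (medians 3.01 and 1.54). In the right panel their medians lie left of the dashed line (-0.34 and 0.20). Proliferation genes lie to the left in both panels (-1.57 and -0.81).

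Proliferation genes were low in precursors. Of 16 listed proliferation genes, 14 were measured and 13 were lower than in Neurog3-high cells, beside 8.98% of all genes. The median log2 ratio was -1.57. At least 2 UMIs over 9 mitotic genes (Aurkb, Cenpf, Mki67, Tpx2, Cdk1, Birc5, Top2a, Ube2c and Ccnb1) were found in 6 of 136 WT precursors (4.41%), and in 4 (2.94%, 0.807 to 7.36) with every cell thinned to 5000 UMIs. Thinned shares were 11.2% (7.91 to 15.2) in Neurog3-high cells, 10.8% (7.43 to 15.1) in Gcg-high cells, 6.27% (4.01 to 9.26) in insulin-high cells and 2.17% (0.264 to 7.63) in Sst-high cells, and 46.3% in Spp1-positive duct cells. The interval of precursors lies below that of Neurog3-high and Gcg-high cells and overlaps those of insulin-high and Sst-high cells. The 46 Mki67 UMIs of WT precursors came from 11 cells, with 87.0% of them in the 5 highest. The list of cell cycle exit mixes inhibitor genes with the cyclin genes Ccnd1, Ccnd2 and Ccnd3, so it was not read as a group. Of 13 measured, none was at least 2-fold higher and 4 were lower, beside 7.8% and 8.98% of all genes. The 4 were Gadd45a (102 against 623), Cdkn1a, Cdkn1c (94.8 against 311) and the cyclin gene Ccnd1 (71.1 against 283). Within 2-fold, Rb1 (ratio 1.96, 1.38 to 2.77) and Cdkn1b (1.86, 1.64 to 2.12) stood higher and Ccnd3 (0.528, 0.442 to 0.627) lower.

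Another 3 lists complete the comparison. Of 30 epithelial adhesion and migration genes, 20 were measured, of which 6 were lower and 2 higher (median log2 ratio -0.77). Over all genes 8.98% were lower and 7.8% higher, so the 2 higher ones are near the share over all genes. The keratin gene Krt19 (22.9 against 146) and the claudin genes Cldn6 (84.1 against 421) and Cldn3 (25.2 against 114) were lower, and the neural adhesion genes Cdh2 (71.1 against 5.85) and Ncam1 (164 against 21.9) were higher. Epcam (417 against 794) and Cdh1 (249 against 416), which define the epithelium, stayed within 2-fold. All 16 measured genes of m6A writers, readers and erasers lay within 2-fold, with a median log2 ratio of 0.03. Mettl3 itself (13.8 against 21.6) and Ythdc2 were too low to be measured. Immediate early and heat shock genes, which tissue digestion induces, had a median log2 ratio of 0.60, with Fosb (1673 against 462), Fos (2184 against 747) and Zfp36 (625 against 259) higher and Ier3 (8.41 against 84.2) lower among 16 measured. Over all genes 7.8% were higher and 8.98% lower. The part of the immediate early and heat shock genes in the other differences was not tested.

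Fev is shared with serotonin neurons, so genes of amine synthesis and transport were read as a group. Of 18 listed, 6 were measured against Neurog3-high cells and 3 were higher, beside 7.8% of all genes. The 3 were Ddc, the decarboxylase that makes serotonin and dopamine (206 against 68.2 CPM), Gch1, the first enzyme of tetrahydrobiopterin synthesis (352 against 80.4), and Maob, which breaks amines down (109 against 14.3). Of the genes that define serotonin cells, Tph1 had 4 UMIs in 3 cells, Lmx1a 2 UMIs, and Tph2, Slc6a4, Gata2 and Gata3 none in WT precursors, which allows up to 2.29 CPM each. Lmx1b, another of them, was found at 40.5 CPM (53.0 in Neurog3-high cells), and the amine transporter gene Slc18a1 at 29.0 CPM.

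Against the 736 hormone-high cells (Gcg-high, insulin-high and Sst-high cells summed), the stage after, fewer genes passed 2-fold. Of 7158 genes measured, 256 were at least 2-fold higher in precursors (3.58%) and 125 lower (1.75%), with a median log2 ratio of 0.31. The first count moved with the setting. It was 162 with the 3 hormone-high classes weighted equally, 483 in cells at or above the lowest Mettl3pKO total and 583 in cells with Y-linked UMIs and no Xist, and Gcg-high and insulin-high cells were deeper than precursors (medians of 13570 and 13930 UMIs). The hormone limits of the rule cut these classes, so here too the ratios are a description. The 9 islet hormones on the marker list summed to 112281 CPM in Gcg-high, 160478 in insulin-high and 102890 in Sst-high cells, against 19388 in precursors. CPM is a share of all UMIs, so these transcripts lower the CPM of other genes in hormone-high cells by construction. Their part in the counts and in the median was not tested. None of the 24 highest and lowest genes named below changed direction under any of the 13 alternatives.

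The endocrine transcription factor genes as a group stood higher in precursors. Of 29 measured, 8 were higher and 0 lower, beside 3.58% and 1.75% of all genes. The median log2 ratio was 0.74 beside 0.31 over all genes. Pax4 was 13.8 times higher (99.3 against 7.17 CPM), Mnx1 3.48 times (2.85 to 4.23), Runx1t1 2.78 times (2.55 to 3.02), St18 2.70 times (2.41 to 3.02), Sox4 2.47 times (434 against 175), Rfx6, which beta cells need, 2.34 times (190 against 80.9), Rfx3 2.28 times and Myt1 2.01 times. Each of the 8 stood above all 3 hormone-high classes taken singly, Rfx3 by the least (97.1 against 91.5 in Sst-high cells). Pdx1 (238 against 120) and Neurod1 (1010 against 618) lay within 2-fold.

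The 12 genes furthest above the hormone-high level were Pcyt1b (281 against 27.5 CPM, 10.2-fold), the intermediate filament gene Vim (174 against 31.3, 5.57-fold, 4.68 to 6.62), Samd5 (4.35-fold), Parm1 (4.22-fold), Zfp703 (3.95-fold), Chgb (5208 against 1414, 3.68-fold, 3.58 to 3.79), Mnx1, Cldn4 (3.15-fold), Ffar2, a receptor for short-chain fatty acids (3.13-fold), Lrpprc, which handles mitochondrial RNA (3.05-fold), Runx1t1 and St18. All 12 also stood above each of the 3 classes taken singly. The 12 furthest below did not: 11 were highest in insulin-high cells and Rgs4 in Gcg-high cells (301 CPM). Npy, which codes for a neuropeptide, had 2 UMIs against 369 CPM, a ratio of 242 (66.9 to 1996), but the level was 696 in insulin-high cells and 2.27 and 4.21 in Gcg-high and Sst-high cells. Mafa, a factor of maturing beta cells, was 36.9 times lower (16.8 against 621, interval 24.4 to 59.0), the imprinted gene Nnat 7.49 times (1306 against 9785) and G6pc2, a phosphatase gene of beta cells, 6.83 times (39.7 against 272). The glucose transporter gene Slc2a2 stood at 32.1 against 355. Against Gcg-high and Sst-high cells the direction turned for 5 of the 12: Nnat (53.6 and 954 CPM there), Mafa (2.01 and 5.26), Slc2a2 (3.52 and 19.98), G6pc2 (30.5 and 7.36) and Prss53 (2.52 and 7.36, against 10.7 in precursors) were higher in precursors than in either. Except for Nnat (1709 UMIs in 79 precursors), these levels rest on few UMIs in few precursors. Mafa had 22 UMIs in 7 cells, Prss53 14 in 10, Slc2a2 42 in 21 and G6pc2 52 in 26. The 5 highest cells held 90.9% of the UMIs of Mafa, 64.3% of Prss53, 57.1% of Slc2a2, 48.1% of G6pc2 and 32.8% of Nnat. Arhgap36 (13.6 times), Prss53 (13.2), Cntfr (13.0), Gm10837 (11.4), Igsf1 (9.93 against 109 CPM), Rgs4 (8.59) and Ppp1r1a (5.69) made up the rest. Granin and processing genes no longer stood higher as a group. Their median log2 ratio was -0.34 beside 0.31 over all genes. Of 15 measured, 1 was higher and 4 were lower, beside 3.58% and 1.75% of all genes. Chgb was the higher one, and Resp18 (80.2 against 284), Nucb2 (51.2 against 146), Scg2 (669 against 1817) and Vgf (29.8 against 59.7) were lower. Nucb2 still stood above its Gcg-high level (33.7) and Vgf above its Sst-high level (16.8). Proliferation genes had a median log2 ratio of -0.81, with 3 of 8 measured at least 2-fold lower, Cdk1 (12.2 against 44.7), Birc5 (11.5 against 36.1) and Top2a (32.9 against 80.8). All 3 were highest in Gcg-high cells, and Top2a stood at 32.6 in Sst-high cells.

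The 136 WT precursors were not uniform. They differed along Fev itself, which chose them, so this is a description. Cells with 10 or more Fev UMIs, against cells with 3 or 4, had 5.62 times as much Pax4 (206 against 36.6 CPM), 3.51 times as much Ddc (347 against 98.8), 2.73 times as much Pcyt1b (455 against 167), 2.64 times as much Chgb (8722 against 3303) and 2.38 times as much Vim (301 against 126). They had less Ghrl (349 against 2635), Iapp (1679 against 5911), Scg2 (306 against 1023) and Pyy (5484 against 12547). Across the 136 cells, which share a library and differ in depth, the correlation of depth-scaled log levels of Fev was 0.47 with Pax4, 0.34 with Chgb, -0.43 with Pyy and -0.44 with Iapp (Pearson; Spearman 0.45, 0.34, -0.40 and -0.41). It was weaker with Ghrl (-0.16, Spearman -0.13), which few cells carried, and with Neurod1 (0.10, Spearman 0.15). The rule also used Neurog3, so a split by it is a description too. The 33 members with 1 or 2 Neurog3 UMIs had more of the progenitor genes than the 103 with none: Spp1 7.05 times (200 against 28.3, interval 4.45 to 11.4), Hes1 5.91 times (144 against 24.3, 3.53 to 10.1), Cdkn1a 2.38 times (275 against 115) and Pax4 2.06 times (162 against 78.9). These intervals count UMIs and not cells, and 5 cells held 78.3% of the Spp1 UMIs of all members. The 33 members had less Iapp (2059 against 4665), Peg10 (908 against 2317), Irx2 (49.9 against 146) and Ppy (71.8 against 292).

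**Figure D3:**
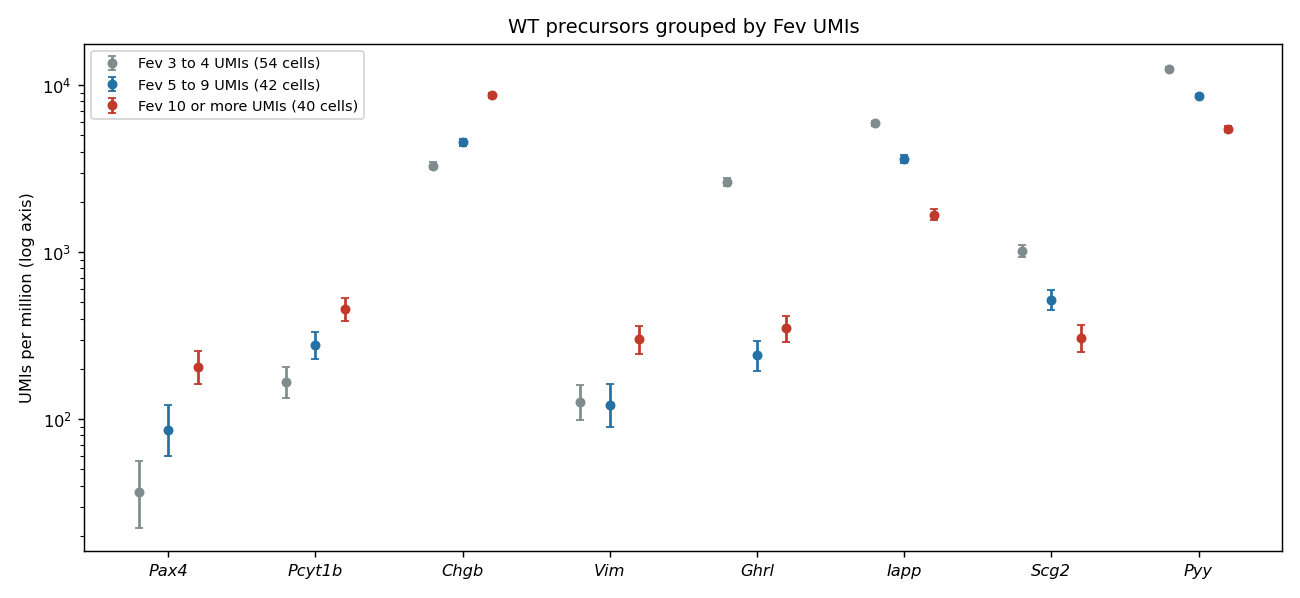
Levels of 8 genes in WT precursors grouped by their Fev UMIs (3 to 4, 5 to 9, and 10 or more), in CPM on a log axis with exact 95% Poisson intervals that count UMIs and not cells. Pax4, Pcyt1b, Chgb and Vim are highest in the cells with 10 or more Fev UMIs, and Iapp, Scg2 and Pyy are lowest there.

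Some hormone transcripts came from few members. Ghrl, the ghrelin gene of epsilon cells, had a UMI in 19 of 136 cells, and the 5 highest cells held 85.1% of its 1664 UMIs, with 489 in 1 cell. Pyy was broader, with UMIs in 101 cells, 20.5 at the median and 990 at the highest, and 22.4% in the 5 highest. Gcg and Ins2, which the rule limits, had UMIs in 90 and 102 cells, each with 1 UMI at the median. The rule sets no limit on Pyy, Iapp or Ghrl, and per 10000 UMIs the highest values in a member were 784 of Pyy, 396 of Iapp and 351 of Ghrl. The 9 islet hormones on the marker list summed to 19388 CPM, with a median cell at 12043, and Pyy alone (9373 CPM) stood above Chgb (5208).

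Markers of other cell types were checked over whole lists. Those of islet cell types, hormones included, were all found: the 2 PP-cell markers summed to 9611 CPM in WT precursors (median cell 2382), the 8 beta-cell markers to 7886 (2880), the 7 alpha-cell markers to 4610 (2646), the 3 delta-cell markers to 1725 (884) and the 2 epsilon-cell markers to 1296 (0). The PP-cell sum was nearly all Pyy (9373 CPM, against 238 of Ppy). That pair summed to 6752 CPM in Gcg-high, 1887 in insulin-high and 28162.5 in Sst-high cells, so it does not mark PP cells here. The 5 precursor markers with Fev summed to 7777 (median cell 5891). Of 4 endothelial markers 3 (Cdh5, Kdr and Emcn) and of 3 mesothelial markers 2 (Msln and Upk3b) had no UMI in WT precursors. The 6 mesenchymal markers summed to 75.7 CPM with Lum at 0, the 4 immune markers to 22.9, the 5 glial and neuronal markers to 87.9 with Prph at 0, and the 6 trunk and duct markers to 302. The 28 acinar markers, 24 of them with a UMI, summed to 2072 CPM, with a range over cells of 535 to 19193. The 5 erythroid markers summed to 6115 CPM with a median cell at 495, and 4 members had over 5% of their UMIs in them, the highest 37.9%. Leaving out those 4 cells left 132 WT members, and none of the 24 genes ranked in each comparison changed direction. The part of these transcripts in other differences was not tested. Scrublet, which scores doublets, marked 3 of the 136. In Mettl3pKO, 1 precursor had 10.7% of its UMIs in acinar markers, and endothelial, mesothelial and immune markers had none.

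Precursors were a smaller share of the Mettl3pKO library. They made up 2.13% of WT cells (1.79 to 2.52) and 0.469% of Mettl3pKO cells (0.273 to 0.750), a Mettl3pKO to WT ratio of 0.220 (0.125 to 0.366). The size of the difference followed the denominator and the depth. Among cells that passed the Ctrb1 and collagen limits the shares were 4.75% and 1.23% (ratio 0.260, 0.147 to 0.431). Among the 5 endocrine-lineage classes together they were 11.5% of 1185 cells and 5.35% of 318 cells (ratio 0.466, 0.264 to 0.774). Counting only cells with at least 10719 UMIs, 32 of 3256 WT cells (0.983%) and 17 of 3624 Mettl3pKO cells (0.469%) were precursors, a ratio of 0.477 (0.249 to 0.886). Among endocrine-lineage cells above that depth the shares were 4.77% (32 of 671) and 5.35% (17 of 318), and the ratio turned to 1.12 (0.584 to 2.08). Genotype, library depth and the point where each table ends cannot be told apart with 1 library each.

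The make-up of the endocrine-lineage cells differed around the precursors. Neurog3-high cells made up 26.4% of them in WT (23.9 to 29.0) against 5.03% in Mettl3pKO (2.90 to 8.04), Sst-high cells 7.76% and 0.629%, Gcg-high cells 23.4% and 42.8%, and insulin-high cells 31.0% and 46.2%. Of WT cells of these classes, 23.5% of precursors, 32.3% of Neurog3-high cells and 28.3% of Sst-high cells reached 10719 UMIs, against 79.1% of Gcg-high and 79.8% of insulin-high cells. Among the 671 WT cells at or above that depth, precursors made up 4.77%, Neurog3-high cells 15.1% (12.4 to 17.99) and Sst-high cells 3.87% (2.55 to 5.63), so at like depth the shares of the latter 2 stayed above those of Mettl3pKO (5.03% and 0.629%, 0.0763 to 2.25). Y-linked transcripts without Xist were seen in 47 WT and 11 Mettl3pKO precursors and Xist without Y-linked ones in 70 and 4, so the members of the libraries also differ in the sex of the embryos they came from.

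**Figure D4:**
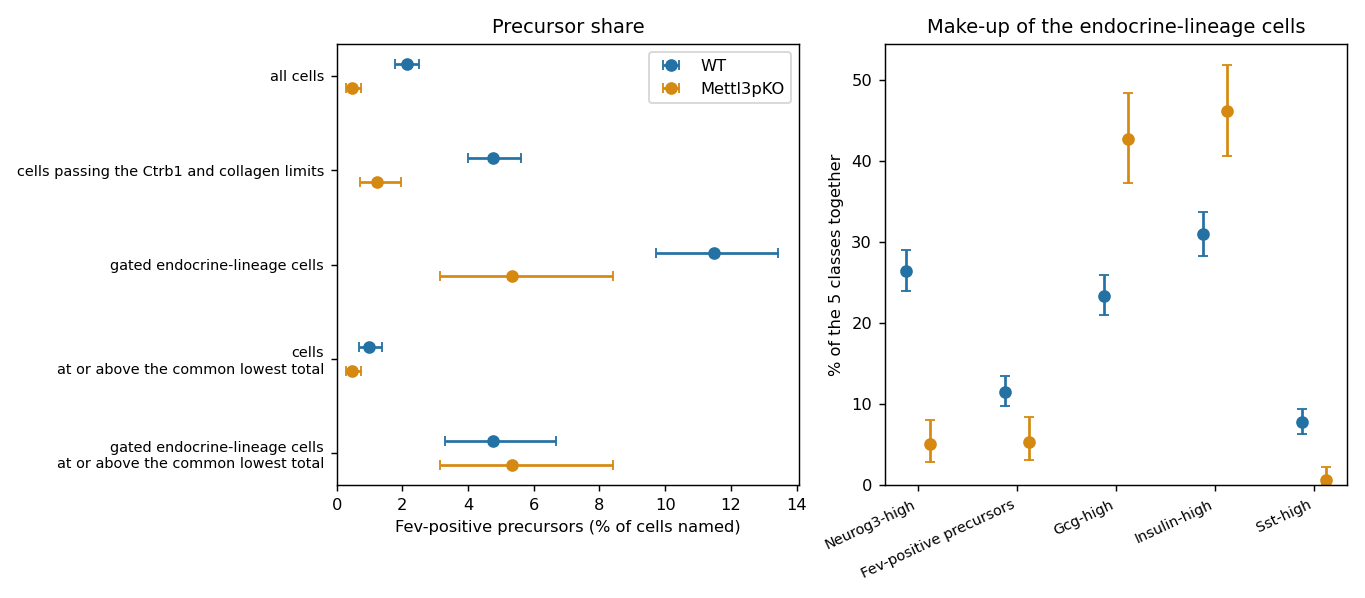
Left, share of Fev-positive precursors in WT and Mettl3pKO (1 library each) under 5 denominators; right, make-up of the 5 endocrine-lineage classes. Points are percent of cells with exact 95% Clopper-Pearson intervals; the libraries separate over all cells (2.13% against 0.469%) and overlap among endocrine-lineage cells at or above 10719 UMIs (4.77% against 5.35%).

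The 17 Mettl3pKO precursors are too few for ratios, so levels are set beside those of the 32 WT members of like depth (median 12870.5 against 14194 UMIs). Of the 4 other markers, 3 had a UMI in 11 Mettl3pKO precursors and 2 in 6, and no cell had all 4. Pax4 had a UMI in 10 of the 32 WT cells (73.7 CPM, 50.4 to 104) and in 0 of 17 Mettl3pKO cells. By the floor of 3 counts this allows a share of cells with a UMI of up to 17.6% and a level of up to 11.3 CPM, and the exact intervals end at 19.5% and 13.8 CPM. Runx1t1 stood at 564 (496 to 640) and 195 (146 to 256), Isl1 at 1364 (1256 to 1478) and 649 (556 to 754), and Insm1 at 838 (755 to 929) and 480 (401 to 571). Neurod1 (829 and 694), Fev (638 and 570) and Peg10 (1843 and 2387) lay closer. In summed UMIs Chgb stood at 4487 (4290 to 4691) in WT and 3280 (3066 to 3505) in Mettl3pKO, but the median cell had 35.5 and 41 UMIs, so no direction is read from Chgb. Chga stood at 3550 (3375 to 3731) and 5048 (4782 to 5325), with 41 and 55 UMIs in the median cell. These intervals count UMIs and not cells or embryos.

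Mitotic transcripts were found in a larger share of the Mettl3pKO precursors. At least 2 UMIs over the 9 mitotic genes were found in 7 of 17 cells (41.2%, 18.4 to 67.1) and in 4 of the 32 WT precursors of like depth (12.5%, 3.51 to 29.0), intervals that overlap. With cells thinned to 5000 UMIs, the shares were 29.4% (10.3 to 56.0) and 2.94% (0.807 to 7.36) of all 136 WT precursors. Thinning evens out the UMIs per cell but not the choice of cells. All Mettl3pKO cells had at least 10719 UMIs before thinning, and the thinned WT shares include shallower cells. Leaving out the Mettl3pKO cell rich in acinar UMIs, the Mettl3pKO count was 7 of 16 without thinning. Spp1 stood at 175 CPM (138 to 219) in the 32 WT cells and at 349 (282 to 428) in Mettl3pKO. It had a UMI in 10 of the 32 WT and 7 of the 17 Mettl3pKO cells, with 0 at both medians. The 5 highest Mettl3pKO cells held 96.8% of the UMIs there, so no direction is read from Spp1. The thinned share was higher in Mettl3pKO in the other classes too: 10.8% against 16.9% in Gcg-high cells, 6.27% against 17.7% in insulin-high cells, 11.2% against 37.5% in Neurog3-high cells, 46.3% against 77.9% in Spp1-positive duct cells, 51.2% against 65.2% in Ctrb1-high cells and 37.3% against 68.0% in collagen-high cells. Collagen-high cells are the mesenchymal class. The limit on depth holds for all these pairs. Genotype and depth cannot be told apart with 1 library each, and the cause of these differences was not tested. The 2 Mettl3pKO Sst-high cells are too few for a share.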

How the data were processed

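The data are single cells of 2 libraries, 1 WT and 1 Mettl3pKO, with a median of 10824 and 16481 UMIs per cell. Per the file headers, the deposited tables come from the BD WTA Rhapsody Analysis Pipeline 1.8. Their values are raw UMI counts, as the deposited whole numbers and differing cell totals show. The build mm10 and Seurat are named in the submitters' processing notes, and the filters on cells are not given in the sources used here. Both tables end inside a line, so 1 incomplete row per library was left out. The 22023 genes in both tables were used, and cell totals count every gene of a table. The members and gene lists were chosen with earlier results of these data known. UMIs were summed over the cells of a class and given as CPM, so deeper cells weigh more. Named genes were, for each comparison, the 12 highest and 12 lowest ratios by the interval bound nearest 1, taken from genes that reached 100 CPM in 1 of the classes and 50 UMIs in both together. Genes of the rule, mitochondrial, ribosomal, globin, Xist and Y-linked genes, acinar enzymes and islet hormones were left out of that ranking. Genes that peak in precursors were ranked by the lower bound over the next class. From each list the members furthest from 1 were named, with others needed to give the pathway. Genes described by Fev or Neurog3 level were chosen after their values were seen. Some results are not reported here. The code for ratios and intervals was run on simulated counts with known folds. Alternatives are given in the closing section. Scrublet (scanpy 1.11.5) marked 5.26% of WT cells and 0.0276% of Mettl3pKO cells, which for Mettl3pKO is a failed run, and marked cells were kept in the main values. Python 3.11.15, numpy 2.4.6 and scipy 1.17.1 were used.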

Additional observations from a re-analysis of the deposited data

How the results depend on the processing

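No paired analysis was possible because each genotype is 1 library. The Mettl3pKO to WT ratio of precursor shares (0.220 of all cells) moved to 0.466 of endocrine-lineage cells, to 0.477 of cells at or above 10719 UMIs, and turned to 1.12 of endocrine-lineage cells above that depth, a setting added after the data were seen. Counts of genes moved with the filter and the fold, by construction. Against Neurog3-high cells, 593 higher and 683 lower genes became 1113 and 1392 at a mean of 5 CPM, 2721 and 2558 with no filter and 0.5 UMIs added, and 281 and 342 at a fold of 3. Against hormone-high cells, 256 and 125 became 618 and 383, 3558 and 1214, and 37 and 55. The higher count against hormone-high cells was also 162 with the 3 classes weighted equally, 483 at or above 10719 UMIs, 469 with cells thinned to 10000 UMIs and 583 in cells with Y-linked UMIs only; the cause was not tested. No named gene changed direction: 24 genes over 288 values against Neurog3-high cells (243 within the interval of the main value) and 24 over 312 against hormone-high cells (216). Depth limits what 0 UMIs can show, as for Pax4 in the 17 Mettl3pKO precursors.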
